A study of Mus musculus with 8 samples.

Results

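The dystrophin-glycoprotein complex was followed through 8 of its genes, Dmd, Utrn, Dag1, Sgca, Sgcb, Sgcd, Sspn and Dtna, in chromatin accessibility profiles of mouse skeletal muscle. Every region that the authors' table annotates to one of the 8 genes was taken, which gave 586 regions of 489637 in all. The genes were taken by name, with no threshold on their values. The assay was ATAC-seq, which tags DNA that a transposase can reach, so that a high signal marks open chromatin. There were 8 libraries of gastrocnemius (calf) nuclei from mice at 6 months of age. Of these, 4 were labelled Vehicle Control and 4 iMSBmal1KO Control, called vehicle and iMSBmal1KO below. Both groups carried the genotype Cre+:iMSBmal1 fl/fl, that is, a Cre recombinase and floxed alleles of Bmal1 (Arntl in the table), which encodes an activator of circadian transcription. The vehicle mice received vehicle and the iMSBmal1KO mice received tamoxifen, so loss of Bmal1 and exposure to tamoxifen cannot be told apart. The labels used here give neither the promoter that drives Cre, the floxed exon, the sex of the mice nor the time of day, and whole muscle holds nuclei of several cell types.

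The complex spans the muscle fibre membrane and joins the actin cytoskeleton inside the fibre to the extracellular matrix outside. Dystrophin, the product of Dmd, binds actin at one end and the membrane protein dystroglycan, from Dag1, at the other, and dystroglycan binds laminin through its sugar chains. The sarcoglycans (Sgca, Sgcb, Sgcd) and sarcospan (Sspn) are membrane proteins that steady this link, alpha-dystrobrevin (Dtna) is a cytoplasmic partner of dystrophin, and utrophin (Utrn) is a relative of dystrophin found at the neuromuscular junction in adult fibres. Loss of dystrophin causes Duchenne muscular dystrophy, and loss of a sarcoglycan causes a limb-girdle form.

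The promoter sequences below come from 5 of the 10 RefSeq starts of the members, each of which fell in a listed region. The region at the downstream Dmd start was weak, at 129 per kb in vehicle. The starts of Sgcb and Sgcd, in regions at 826 and 494 per kb, and another Dag1 start are not shown. The Sspn window lies beside the region nearest to a call and does not hold it. The sequences are the 250 bases before 5 RefSeq starts of 4 members in build GRCm38.p6, 5′ to 3′ on the strand of the gene. Capitals mark a CArG box, the element bound by serum response factor (CC, 6 bases of A or T, then GG), or a TATAAA on either strand.
Dmd, upstream start, chrX:82948620-82948869, plus strand: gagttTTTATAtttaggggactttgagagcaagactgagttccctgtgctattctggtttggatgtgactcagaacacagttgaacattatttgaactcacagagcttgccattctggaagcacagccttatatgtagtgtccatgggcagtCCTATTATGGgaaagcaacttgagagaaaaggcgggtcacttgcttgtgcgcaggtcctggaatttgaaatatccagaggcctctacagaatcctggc
Dmd, downstream start, chrX:85048045-85048294, plus strand: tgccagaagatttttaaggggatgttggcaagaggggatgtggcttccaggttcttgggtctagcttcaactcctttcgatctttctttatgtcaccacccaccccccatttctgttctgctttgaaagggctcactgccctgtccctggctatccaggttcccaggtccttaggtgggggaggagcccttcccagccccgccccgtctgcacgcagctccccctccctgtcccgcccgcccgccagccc
Dag1, chr9:108263959-108264208, minus strand: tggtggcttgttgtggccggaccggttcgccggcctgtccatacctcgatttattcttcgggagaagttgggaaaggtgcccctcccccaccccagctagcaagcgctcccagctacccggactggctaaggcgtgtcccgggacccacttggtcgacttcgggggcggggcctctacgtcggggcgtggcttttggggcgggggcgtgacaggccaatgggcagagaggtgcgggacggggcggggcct
Sgca, chr11:94976328-94976577, minus strand: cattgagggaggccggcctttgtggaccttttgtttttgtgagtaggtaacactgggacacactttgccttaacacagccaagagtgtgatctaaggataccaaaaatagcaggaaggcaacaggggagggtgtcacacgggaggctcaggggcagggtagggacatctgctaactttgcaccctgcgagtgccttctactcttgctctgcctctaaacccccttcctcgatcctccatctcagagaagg
Sspn, chr6:145933872-145934121, plus strand: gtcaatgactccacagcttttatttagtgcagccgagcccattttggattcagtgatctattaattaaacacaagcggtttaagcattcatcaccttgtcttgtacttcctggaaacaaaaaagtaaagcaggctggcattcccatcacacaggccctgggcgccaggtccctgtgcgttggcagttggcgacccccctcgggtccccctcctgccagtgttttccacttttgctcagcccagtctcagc
The GC content of these windows was 45.2% and 60% for the upstream and downstream Dmd starts, 67.6% for Dag1, 52.8% for Sgca and 51.2% for Sspn, and the median of 32851 RefSeq windows of the same length was 52.4%. The upstream Dmd window alone of the 10 windows of the members held a CArG box, 98 bases before the start and inside the accessible start region of Dmd. A CArG box was present in 1.47% of all windows. A TATAAA was found before the upstream Dmd start and before the Sgcb start, and in 12.4% of all windows. CACGTG, the E-box bound by the Bmal1 and Clock pair, was present before the Sgcd start, 244 bases upstream, and before the Utrn start at 12861735, 139 bases upstream, and in 6.02% of all windows. The Sgcd copy lay in a small region whose signal was 8.92 ± 3.74 in vehicle and 12.1 ± 3.83 in iMSBmal1KO muscle (SD, n = 4 each), and the Utrn copy lay in no region of the table. CAGCTG, an E-box of the kind bound by myogenic factors, was present in none of the 10 windows and in 13.0% of all windows. Each motif was searched on both strands, and none of them overlapped another in these windows.

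The libraries held 4.31 to 29.5 M (units of 1e+06) read equivalents, and the shallowest, vehicle 4, stood apart: 24.9% of all regions were at 0 in it, against 2.38% to 11.9% in the other libraries, and 16.5% of its reads were mitochondrial. It was the lowest vehicle library for 7 of the 8 members, the exception being Utrn. Promoters of 10 fast-fibre genes had a pooled signal of 855 to 1371 per kb in vehicle and 1041 to 1241 per kb in iMSBmal1KO muscle. Over all libraries it was 114 to 156 per kb for 5 of 6 listed slow-fibre genes. For macrophage genes, of which 2 of 5 had a promoter region, it was 8.78 to 35.2 per kb. The fast myosin promoters of Myh4, Myh1 and Myh2 went the other way, at 178, 74.3 and 48.0 per kb in vehicle. The other fast-fibre promoters were at 834 to 1686 per kb, and single slow-fibre promoters at 57.1 to 197 per kb. The promoters of 4 genes not expected in muscle lay at 69.5 to 87.6 per kb in vehicle and at 97.1 to 112 per kb in iMSBmal1KO muscle, so that the groups did not overlap, and Schwann-cell promoters were at 119 to 187 and 180 to 234 per kb. Promoters of 5 genes of synaptic nuclei, those at the neuromuscular junction, were at 247 to 421 and 303 to 430 per kb. Of these genes, Chrna1 passed an adjusted p of 0.05 in summed signal (log2 change 1.07, limma adjusted p = 0.039), as did 0.130% of all genes. Colq, Musk and Etv5 had log2 changes of 0.43, 0.13 and 0.04, and Chrne one of -0.28. The part of the background at genes not expected in muscle, and of other cell types, in the results below was not tested. The targeted gene had a summed signal of 2688, 2248, 2557 and 1942 in vehicle 1 to 4 and 3023, 3421, 3154 and 3315 in iMSBmal1KO 1 to 4 (log2 change 0.46 ± 0.14 SE, limma adjusted p = 0.374), without overlap between the groups. Of its 37 tested regions 34 had positive estimates and 1 passed the threshold, higher (limma adjusted p = 0.047). Accessibility along Arntl is no check of the deletion.

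The baseline accessibility of the 8 genes differed widely in vehicle muscle. Per kb of listed region the order was Sspn (401 ± 89.6), Sgca (388 ± 77.1), Dag1 (269 ± 38.3), Dtna (123 ± 21.8), Sgcd (84.4 ± 13.0), Utrn (78.2 ± 8.55), Dmd (50.7 ± 6.93) and Sgcb (41.6 ± 24.2; mean signal ± SD, n = 4). The ranges over libraries of Sspn, Sgca and Dag1 overlapped from one gene to the next. So did those of Dtna, Sgcd and Utrn and those of Dmd and Sgcb. Within each vehicle library, however, Sgca was above Dag1 and Dtna above Sgcd, while the order of the other overlapping neighbours varied. No overlap was seen between Dag1 and Dtna or between Utrn and Dmd. Among all tested genes Sspn stood at percentile 84.7 of this measure, Dag1 at 74.4, Dmd at 21.4 and Sgcb at 14.3.

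The place of the signal also differed. At Sgca and Sspn 87.8% and 79.7% of the vehicle signal lay within 1000 bp of an annotated transcript start, and at Dag1 52.7%. Dmd, the longest of the genes at 2390 kb, had 81.7% of its signal in introns, spread over 106 of its 110 regions, and 18.3% near a start. Utrn had 59.8% of its signal in introns, and Sgcd 47.6%. At Dtna and Sgcd 55.7% and 40.9% of the signal carried the label of a 5′ UTR exon although it lay more than 1000 bp from the start. That label reached 196 kb into Sgcd and 115 kb into Dtna, so in this table it also covers the introns between untranslated exons.

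**Figure D1:**
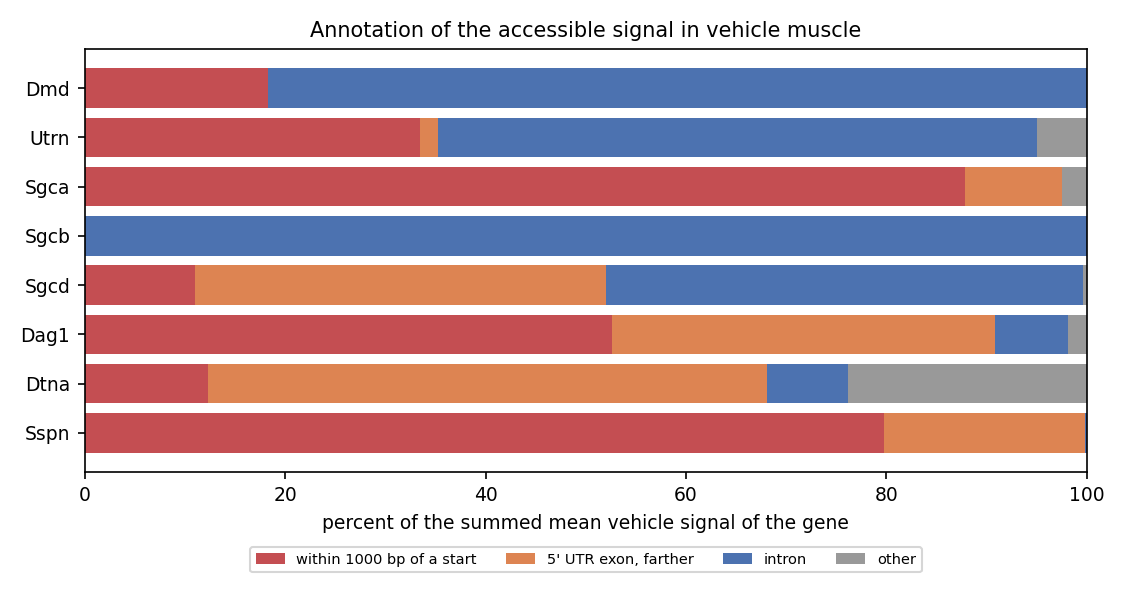
Percent of the summed mean vehicle signal (n = 4 libraries) of each gene, on the x axis, by where the table places the regions. Sgca and Sspn have most of their signal within 1000 bp of a start (87.8% and 79.7%), while Dmd has 81.7% in introns and all regions of Sgcb are intronic.

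The comparison of iMSBmal1KO with vehicle muscle asks whether accessibility at these genes differed after induced loss of Bmal1. With limma and Benjamini-Hochberg adjustment over all features, 0 of 132 tested member regions, 0 of 8 genes and 0 of 17 tested promoters passed an adjusted p of 0.05. A promoter here is the sum of the regions that the table assigns to a transcript and that lie within 1000 bp of its start. Each region is assigned to 1 transcript, so transcripts with the same or nearby starts, such as Sgca-202 and Sgca-205, Dag1-201 and Dag1-207 or Utrn-208 and Utrn-212, split the regions around a start between them. The share of all tested features that passed was as small, 0.0881% of regions, 0.130% of genes and 0.132% of promoters. At an unadjusted p under 0.05 there were 19 member regions (16 higher, 3 lower), where 9.22% of all tested regions reached it, 6.59% higher and 2.63% lower. Of the genes, 2 reached it (9.48% of all, 7.61% higher) and of the promoters 3 (9.72% of all, 7.63% higher), in each case higher. The other 454 member regions were below the filter on low signal.

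Estimates were positive for 101 of the 132 member regions, with a median log2 change of 0.29, beside a positive share of 62.0% and a median of 0.12 over all regions. All 8 genes had positive estimates with a median of 0.20, where 66.6% of all genes were positive with a median of 0.11. Of the promoters 15 of 17 were positive with a median of 0.34, where 68.0% of all were positive with a median of 0.14. Under the deposited scaling the medians over all features were thus above 0 as well. Trimmed-mean (TMM) factors moved the median of all regions to 0.01. With them 84 of the 132 member regions were positive, beside 51.0% of all regions, and 6 of the 8 genes, beside 48.2% of all genes. The log2 changes of Sgca and Dag1 were then -0.06 and -0.01. Without vehicle 4, 83 of the 132 member regions were positive with a median of 0.15, beside 54.3% and a median of 0.04 over all regions.

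**Figure D2:**
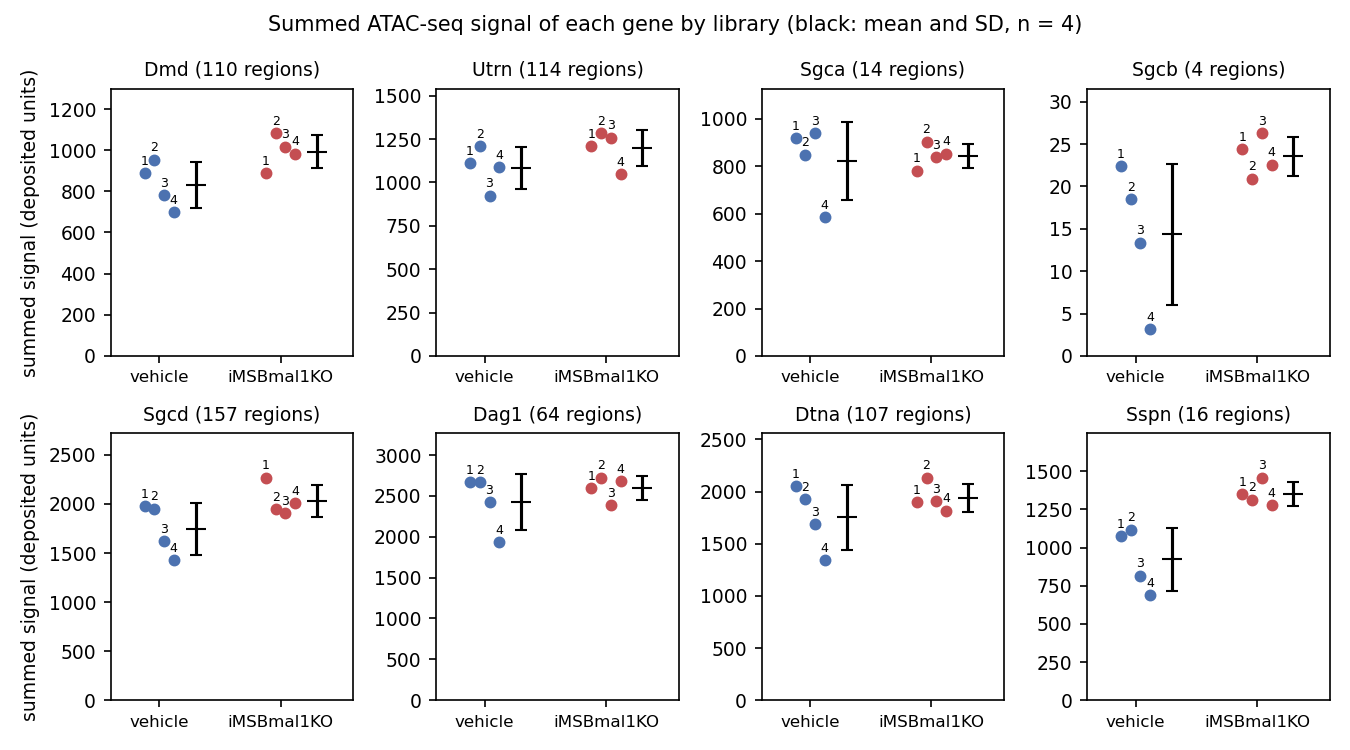
Summed signal of each gene (y axis, deposited units, from 0) in each library, numbered 1 to 4 within its group, with the mean and SD in black. Sspn is the gene whose groups do not overlap, 688 to 1118 in vehicle and 1276 to 1458 in iMSBmal1KO muscle, and vehicle 4 is the lowest vehicle library in 7 of the 8 panels.

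Sspn, which encodes the tetraspanin-like protein sarcospan, came nearest to a call. Its summed signal was 1077, 1118, 815 and 688 in vehicle 1 to 4 and 1349, 1313, 1458 and 1276 in iMSBmal1KO 1 to 4. Every iMSBmal1KO library was above every vehicle library, as was so for 3.69% of all genes. The log2 change was 0.57 ± 0.16 SE (95% interval 0.23 to 0.91), with a limma adjusted p of 0.345. The difference lay in 1 region, chr6:145932769-145933152, 970 bp before the start of transcript Sspn-201. By the other RefSeq start of Sspn, at 145931873 on the plus strand, this region lies inside the gene. It is called upstream below with respect to Sspn-201 only. The signal of this region was 616, 706, 472 and 338 in vehicle and 991, 902, 1090 and 837 in iMSBmal1KO muscle, again without overlap (3.62% of all regions were higher without overlap). This was a change of 0.89 ± 0.21 SE on the log2 scale, with a limma adjusted p of 0.158, from 108 to 742 reads per vehicle library and 667 to 2315 per iMSBmal1KO library. It passed the threshold under 4 alternatives: the adjusted p was 0.043 with TMM factors, 0.037 with median-of-ratios factors, 0.014 with loess scaling and 0.043 with limma-voom. The smallest adjusted p of any member region, which was at this region in each setting run except the one without vehicle 2, ranged from 0.014 to 0.498.

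The upstream region was the most accessible tested region of all members at 1391 per kb in vehicle muscle, and held 57.6% of the vehicle signal of Sspn. The region over the start itself, chr6:145934118-145934598, was at 204 ± 22.2 in vehicle and 215 ± 35.7 in iMSBmal1KO muscle (SD, n = 4 each; log2 change 0.07 ± 0.20 SE, adjusted p = 0.925). The ratio of the upstream to the start region, which was chosen for display after the values were seen and was not tested, was 2.96, 3.05, 2.66 and 1.69 in vehicle 1 to 4 and 5.25, 3.51, 5.97 and 3.59 in iMSBmal1KO 1 to 4. The scaling of the libraries cancels in this ratio, in which the groups did not overlap. As the upstream region was picked for its difference and the start region hardly differed, this lack of overlap is no further support. The remaining tested regions of Sspn, 9083 to 19125 bp from the start of Sspn-203, had log2 changes of 0.02, -0.42 and -0.02. The promoter Sspn-201, which sums the upstream and the start region, was at 737 ± 178 in vehicle and 1170 ± 83.2 in iMSBmal1KO muscle (log2 change 0.70 ± 0.19 SE, limma adjusted p = 0.215). The neighbouring genes Bhlhe41, a clock repressor gene 66.5 kb before Sspn, and Itpr2, 143 kb after it, had summed log2 changes of 0.14 ± 0.16 SE and 0.02 ± 0.13 SE.

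**Figure D3:**
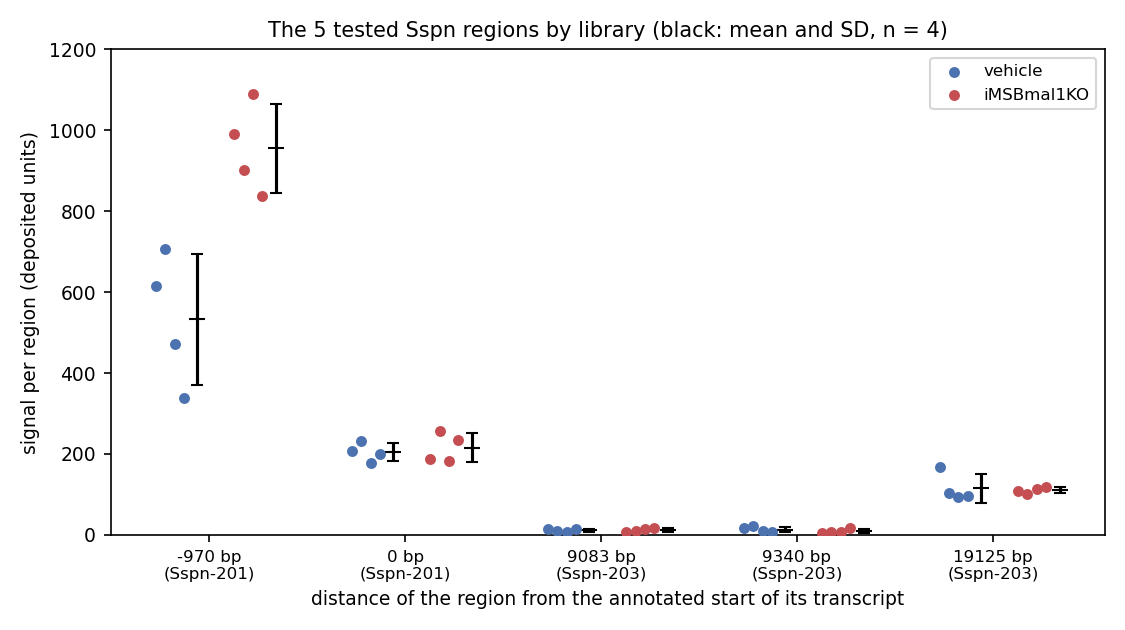
Signal (y axis, deposited units, from 0) of the 5 tested regions of Sspn, placed by their distance from the annotated start of their transcript, with vehicle in blue, iMSBmal1KO in red and the mean and SD in black. At -970 bp all iMSBmal1KO libraries (837 to 1090) are above all vehicle libraries (338 to 706), while the groups overlap at the start.

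Dmd lies on chromosome X, on which 1.09% to 1.28% of the nuclear signal fell in every library. Its summed signal was 889, 953, 782 and 697 in vehicle 1 to 4 and 887, 1081, 1018 and 983 in iMSBmal1KO 1 to 4, with overlap between the groups. The log2 change was 0.26 ± 0.15 SE (95% interval -0.05 to 0.57; limma adjusted p = 0.561), which was 0.14 with TMM factors. At the upstream one of the starts shown (transcript Dmd-203), which serves a full-length form of dystrophin and whose sequence with the CArG box is given above, the promoter signal was 149, 130, 103 and 68.8 in vehicle and 117, 190, 186 and 143 in iMSBmal1KO muscle. The means were 113 ± 35.0 and 159 ± 35.2 (SD, n = 4 each), the groups overlapped, and the log2 change was 0.52 ± 0.23 SE with an adjusted p of 0.499. Among all tested promoters this start was at percentile 62.4 per kb, at 261 per kb, where the median was 164.

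The downstream start (transcript Dmd-212) lies in the 3′ part of the gene. Its promoter had 38.8 ± 15.9 in vehicle and 50.4 ± 9.50 in iMSBmal1KO muscle, a log2 change of 0.43 ± 0.27 SE with an adjusted p of 0.560. Per kb it stood at percentile 42.5, below the upstream start. Of the 15 tested Dmd regions 11 were positive. The smallest p of those was at chrX:83208248-83208404 in intron 2, 259 kb from the start, with 18.1, 34.9, 6.99 and 6.25 in vehicle and 32.5, 46.8, 37.0 and 50.2 in iMSBmal1KO muscle. The groups overlapped through vehicle 2 alone, and the estimate was 1.57 ± 0.43 SE (log2; adjusted p = 0.283). Without vehicle 2 it was 2.02 with an adjusted p of 0.029. In the other direction, chrX:84160013-84160318 in intron 44 had 14.9, 15.4, 28.0 and 46.9 in vehicle and 12.4, 13.4, 15.5 and 10.0 in iMSBmal1KO muscle (log2 change -0.84 ± 0.37 SE, adjusted p = 0.518). Its highest value was that of vehicle 4, the library of lowest depth, and 14 to 44 reads per vehicle library stood behind it.

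Utrn, the autosomal relative of Dmd, had a summed signal of 1113, 1208, 923 and 1088 in vehicle and 1209, 1282, 1258 and 1048 in iMSBmal1KO muscle. The groups overlapped, and the log2 change was 0.15 ± 0.14 SE (95% interval -0.15 to 0.45; limma adjusted p = 0.701), which was 0.075 without vehicle 3 and 0.031 with TMM factors. The most accessible promoters were Utrn-208 at 260 ± 39.2 and 302 ± 24.7 (log2 change 0.23 ± 0.19 SE) and Utrn-205 at 34.2 ± 17.6 and 39.9 ± 2.94 (0.33 ± 0.28 SE), and per kb they lay at percentiles 54.9 and 60.1. The other tested Utrn promoters, Utrn-206, Utrn-213 and Utrn-212, had mean signals of 14.3 to 23.4 in vehicle and log2 changes of 0.45, 0.45 and -0.12, with adjusted p from 0.594 to 0.916 (limma). The start of Utrn-201 at 12861736 was at 22.4, 6.16, 7.63 and 21.9 in vehicle and 4.28, 4.18, 13.1 and 1.25 in iMSBmal1KO muscle and was below the filter. Within Utrn, the region 101 bp before the start of Utrn-205 (chr10:12869467-12869533) was at 14.7 ± 7.65 and 27.8 ± 4.06 (log2 0.98 ± 0.34 SE, adjusted p = 0.444). An intron 1 region at chr10:12807761-12807910 was at 34.9 ± 10.4 and 23.9 ± 1.03 (-0.48 ± 0.29 SE, adjusted p = 0.597). Neither passed the test.

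Dag1, from which both subunits of dystroglycan are cut, had a summed signal of 2665, 2666, 2426 and 1935 in vehicle 1 to 4 and 2593, 2723, 2386 and 2677 in iMSBmal1KO 1 to 4. The groups overlapped, and the log2 change was 0.11 ± 0.14 SE (95% interval -0.18 to 0.40; limma adjusted p = 0.779), which without vehicle 4 was 0.0047. The promoter Dag1-201, whose upstream region holds the GC-rich window given above, was at percentile 94.3 per kb, with 1211 ± 200.2 in vehicle and 1269 ± 142 in iMSBmal1KO muscle (SD, n = 4 each). Its log2 change of 0.08 ± 0.18 SE had an adjusted p of 0.881. The region of Dag1 with the smallest p, chr9:108257161-108257281, lay 6471 bp into the gene and had 13.9, 10.3, 12.1 and 3.13 in vehicle and 21.8, 28.4, 16.7 and 26.3 in iMSBmal1KO muscle. The groups did not overlap, but the counts were low, 1 to 19 reads per vehicle library, and the estimate of 1.29 ± 0.40 SE had an adjusted p of 0.379. The only tested Dag1 region with a negative estimate lay over the start itself, at -0.10 ± 0.19 SE.

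Among the sarcoglycan genes, Sgca (alpha-sarcoglycan), a compact gene of 13.6 kb, had a summed signal of 920, 850, 939 and 585 in vehicle and 782, 904, 839 and 853 in iMSBmal1KO muscle. Vehicle 4 was the low library, and the log2 change of 0.06 ± 0.16 SE (95% interval -0.28 to 0.40; limma adjusted p = 0.912) was -0.10 without it. Its start Sgca-202, whose sequence is given above, had 205 ± 46.5 and 211 ± 26.3 (log2 change 0.07 ± 0.21 SE), and the internal start Sgca-204 had 480 ± 105 and 508 ± 27.9 (0.11 ± 0.19 SE). Sgca-203, a weaker internal start, had 15.99, 19.5, 11.4 and 9.38 in vehicle and 25.3, 32.6, 20.3 and 22.6 in iMSBmal1KO muscle. These groups did not overlap, as was the case in the higher direction for 3.31% of all promoters, and the log2 change of 0.82 ± 0.32 SE had an adjusted p of 0.493. Sgca-205, which has the same start as Sgca-202 and holds other regions farther into the gene, had a negative estimate, with 24.0 ± 5.85 and 15.1 ± 4.23 (-0.64 ± 0.32 SE, adjusted p = 0.512), and the smallest p in that direction was at its region chr11:94975419-94975495 (-0.72 ± 0.35 SE, adjusted p = 0.542).

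Sgcd (delta-sarcoglycan) was listed with 157 regions, of which 34 were tested. The summed signal was 1980, 1951, 1622 and 1426 in vehicle and 2267, 1946, 1907 and 2011 in iMSBmal1KO muscle. The groups overlapped, and the log2 change was 0.23 ± 0.14 SE (95% interval -0.07 to 0.53; limma adjusted p = 0.588), which was 0.14 without vehicle 4 and 0.11 with TMM factors. The promoter Sgcd-201 had 192 ± 44.1 and 240.4 ± 33.6 (log2 change 0.34 ± 0.20 SE, adjusted p = 0.554). Among its regions, chr11:47065297-47065594 in intron 6 had 18.1, 15.4, 12.1 and 15.6 in vehicle and 35.1, 23.4, 29.8 and 25.1 in iMSBmal1KO muscle, without overlap (log2 change 0.84 ± 0.30 SE, adjusted p = 0.456). In the lower direction the smallest p was at chr11:47201552-47201772 in intron 2, at -0.52 ± 0.36 SE (adjusted p = 0.641), while the lowest estimate of a tested Sgcd region was -0.59.

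Sgcb (beta-sarcoglycan) was listed with 4 regions, all in intron 5, and with a summed signal of 22.4, 18.5, 13.3 and 3.13 in vehicle and 24.4, 20.9, 26.2 and 22.6 in iMSBmal1KO muscle. The vehicle 4 value came from 1 read, the groups overlapped, and the log2 change of 0.93 ± 0.43 SE (95% interval 0.02 to 1.84; limma adjusted p = 0.520) was 0.39 without vehicle 4. The single tested region, chr5:73637825-73637950, had a log2 change of 0.95 ± 0.44 SE (adjusted p = 0.535). The RefSeq start of Sgcb, at 73647737, fell inside an open region that the table gives to Gm43799, chr5:73647270-73647880. That region was at 504 ± 76.5 in vehicle and 610 ± 104 in iMSBmal1KO muscle (SD, n = 4 each; log2 change 0.27 ± 0.19 SE, adjusted p = 0.639), at 826 per kb in vehicle. The low level of Sgcb therefore describes its intron and not its start.

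Dtna (alpha-dystrobrevin) had a summed signal of 2053, 1924, 1690 and 1341 in vehicle and 1901, 2132, 1910 and 1815 in iMSBmal1KO muscle. The groups overlapped, and the log2 change was 0.16 ± 0.15 SE (95% interval -0.15 to 0.47; limma adjusted p = 0.688), which was 0.040 without vehicle 4 and 0.044 with TMM factors. Its main promoter Dtna-202 had 224, 292, 172 and 131 in vehicle and 409, 304, 222 and 191 in iMSBmal1KO muscle. The log2 change was 0.46 ± 0.25 SE (adjusted p = 0.533), and the weak internal start Dtna-210, at 11.3 and 14.2, had a log2 change of 0.38 ± 0.38 SE. The gene held separated regions in both directions. The region chr18:23467678-23467829, 52.2 kb from the start, had 24.5, 19.5, 24.1 and 15.6 in vehicle and 52.6, 44.3, 31.0 and 28.9 in iMSBmal1KO muscle (log2 change 0.85 ± 0.30 SE, adjusted p = 0.447). At the other end, chr18:23654246-23654339 in a 3′ UTR exon had 19.2, 23.6, 14.6 and 15.6 in vehicle and 4.71, 7.53, 13.1 and 12.5 in iMSBmal1KO muscle (-0.95 ± 0.38 SE, adjusted p = 0.499). This was the only tested member region lower without overlap, as 1.87% of all tested regions were. The most open tested region of Dtna, also in a 3′ UTR exon, was at 377 ± 103 and 283 ± 46.8 (log2 change -0.39 ± 0.22 SE, adjusted p = 0.580).

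**Figure D4:**
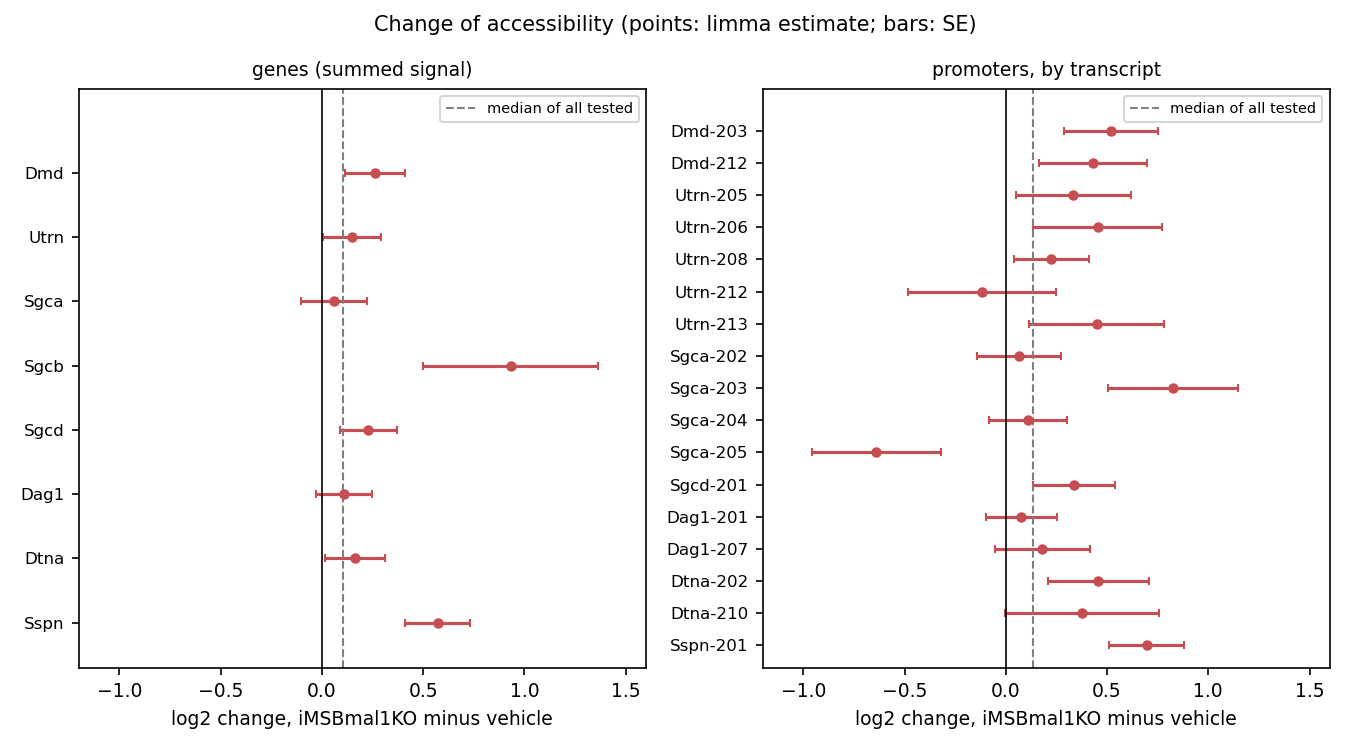
Log2 change, iMSBmal1KO minus vehicle (x axis), with its SE, for the summed signal of each gene (left) and each tested promoter (right). The dashed lines mark the medians of all tested genes (0.11) and promoters (0.14), against which Sspn (0.57) and Sspn-201 (0.70) lie to the right, as do Sgcb (0.93) and Sgca-203 (0.82) with larger SE.

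Across the 132 tested regions the estimates ran from -0.95 at Dtna to 1.57 at Dmd, and 9 regions were higher and 1 lower without overlap between the groups, beside 3.62% and 1.87% of all regions. By gene the median log2 change of the tested regions was 0.57 at Dmd, 0.37 at Utrn, 0.35 at Sgcd, 0.30 at Dtna, 0.15 at Dag1, 0.02 at Sspn and 0.01 at Sgca. The change at Sspn was held by 1 strong region, while at Dmd 11 of 15 tested regions were positive. The other 95 Dmd regions were below the filter, which a region can pass mainly through the group in which it is higher. The Dmd median thus does not describe its whole sum, for which the log2 change was 0.26. With no filter, 355 of 586 member regions were positive, beside 52.3% of all regions. The medians were then 0.15 for member regions and 0.03 for all.

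**Figure D5:**
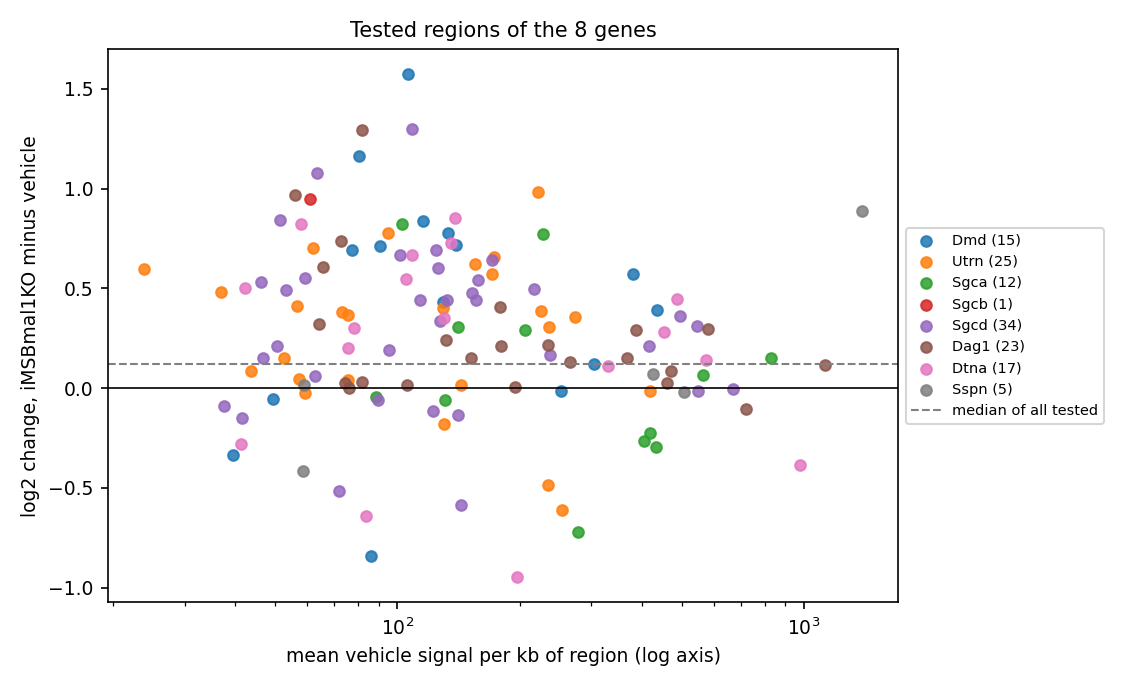
Log2 change (y axis) of the 132 tested regions against their mean vehicle signal per kb (x axis, log scale), coloured by gene, with the number of regions in the key. The Sspn region upstream of Sspn-201, at 1391 per kb, is the most open and has a change of 0.89, while most of the larger estimates in either direction belong to regions of low signal.

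Other genes of the complex and of its assembly were read from a list of 39, of which 37 had a tested summed signal. None passed an adjusted p of 0.05 (limma), nor did any of their 395 tested regions. At an unadjusted p under 0.05 there were 4 higher genes and 0 lower, with 7.61% of all genes higher and 1.86% lower by that measure. The median log2 change was 0.13, with 25 of 37 positive, beside a median of 0.11 and a positive share of 66.6% over all genes. Above the median of all genes lay 21 of the 37. The largest estimate was that of Sgce (epsilon-sarcoglycan), at 636 ± 109 and 909 ± 66.3 (SD, n = 4 each) without overlap, a log2 change of 0.53 ± 0.15 SE with an adjusted p of 0.368. Dpm3, a subunit of the enzyme that supplies mannose for glycosylation, followed at 0.52 ± 0.21 SE (adjusted p = 0.505), and Pomt2, which adds the first mannose to dystroglycan, at 0.41 ± 0.16 SE (adjusted p = 0.505). Of the 15 tested glycosylation genes 13 were positive, with a median of 0.21, while of the 9 syntrophins, Dtnb and other cytoplasmic partners 4 were positive, with a median of -0.05. Of these sets, 12 of the 15 and 2 of the 9 lay above the median of all genes, and the difference between the sets was not tested. The most negative were Sntg1 (gamma-1-syntrophin) at -0.37 ± 0.25 SE and Sgcz (zeta-sarcoglycan) at -0.36 ± 0.37 SE. Vehicle 4, the library of lowest depth, held the highest value of each, 532 for Sntg1 and 269 for Sgcz. The other vehicle libraries were at 193 to 306 and 70.9 to 174, and the iMSBmal1KO libraries at 191 to 338 and 86.1 to 183. Per kb the 2 genes stood at percentiles 4.1 and 4.6, and no region of Sgcz was tested. Of the 8 laminin and other matrix genes 5 were positive, with a median of 0.06, and of the laminin-binding integrin genes Itgb1 was at 0.28 ± 0.18 SE and Itga7 at -0.08 ± 0.16 SE.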

How the data were processed

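ATAC-seq was done on 8 mouse gastrocnemius libraries, 4 vehicle and 4 iMSBmal1KO. The authors deposited 1 table of 489637 regions with a signal per library that had been scaled per library. Per the submitters' processing notes, Partek, Bowtie2, MACS2 and DESeq2 were used, in an order and with settings not given in the sources used here, and builds mm10 and GRCm39 are both named. The positions fit GRCm38.p6 (mm10): 99.864% of 22780 matched genes overlapped their RefSeq gene. Duplicate removal and the shift of reads for the transposase are not given in the sources used here, and both could move the signal of narrow regions.

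In each library at least 98.8% of low values were whole multiples of 1 step within 0.02 reads. Values divided by that step are called read equivalents, but since not all were whole, no count test was used, although one was planned for counts. A feature entered the tests if 4 or more libraries held 0.762 or more read equivalents per 1e+06 and its total was 15 or more, which left 124901 regions, 22224 genes and 25081 promoters. The filter does not use the group labels, but as it asks for 4 of the 8 libraries, a feature can pass mainly through the group in which it is higher. Differences were tested with limma-trend 3.58.1 in R 4.3.3 (robust, group as the only term) on log2(signal + 1), so folds of low features are understated. P-values were adjusted by Benjamini-Hochberg over all features of a kind at 0.05. Nothing says whether libraries of a group came from separate mice, so p-values measure the spread between these libraries, which may be technical. Abutting regions are not independent. Fewer nuclei of a type and lower accessibility per nucleus cannot be told apart in whole muscle.

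Named were all members, with their sums, their promoter of highest vehicle signal per kb, all tested promoters of Dmd, Utrn and Dtna and the region of smallest p in each direction. From the list of related genes the 3 most positive and 3 most negative were to be named, and 1 of these is not reported here. The ratio within Sspn, its neighbours, the Sgcb start and further promoters and regions were chosen after values were seen. The members and lists were chosen with earlier results of these data known. Of the 39 related genes, B4gat1 was matched to no gene of the table and Dolk was under the filter. RefSeq promoters matched 7 of the 8 members. Python 3.11.15 and pandas 2.3.3 made the tables. Alternatives were other pseudocounts, scalings, filters, promoter windows, a replicate block, leaving out each library, and, added after seeing the data, limma-voom.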

Additional observations from a re-analysis of the deposited data

Results flagged for a closer look

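Among 80 groups of 4 values checked for the members, 2 held a library far from the other 3, where chance gives 4.0. At the internal start Sgca-204, iMSBmal1KO 1 had a signal of 466.97, below the 518 to 528 of the other iMSBmal1KO libraries. At the Utrn region chr10:12869467-12869533, iMSBmal1KO 4 had 33.87, above the 25.1 to 26.2 of the others. Neither feature passed the test between groups.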

How the results depend on the processing

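The number of member regions past the threshold was 0 as reported and 1 with TMM factors, 1 with median-of-ratios factors, 1 with loess scaling and 1 with limma-voom, each time the Sspn region 970 bp upstream of the Sspn-201 start. Leaving out 1 library at a time gave 0 to 1 regions, the 1 being the Dmd intron 2 region without vehicle 2. For promoters the number was 1 with loess scaling (Sspn-201, adjusted p = 0.024) and 0 to 1 on leaving out 1 library (Sspn-201 without vehicle 2, adjusted p = 0.041), and for genes it was 0 in every setting run. The cause was not tested. The log2 change of Dag1 reversed to -0.0095 with TMM factors, -0.0093 with median-of-ratios factors and -0.019 with total nuclear reads. That of Sgca reversed to -0.059 with TMM factors, -0.059 with median-of-ratios factors, -0.069 with total nuclear reads, -0.066 with loess scaling, and on leaving out 1 library ranged from -0.097 (without vehicle 4) to 0.130. The other 6 genes stayed positive in every setting in which they were tested, and Sgcb was not tested at a minimum count of 30. Without vehicle 4, the median of all regions was 0.04. Over all features, calls ranged from 32 (without vehicle 1) to 342 (loess scaling, limma-voom) for regions, beside 110 as reported. With the replicate number as a block, 0 member regions, 0 genes and 0 promoters passed, and calls over all genes went from 29 to 116. Same-numbered libraries correlated at -0.06, 0.36, 0.06 and 0.06 in their deviations, and only number 2 matched itself best, so the numbers were not taken as pairs. The planned edgeR and DESeq2 alternatives were not run, since whole reads were not fully recovered. Depth limited the regions of low signal: 454 of 586 member regions were below the filter.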

Other observations

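The genes whose summed signal ran most like that of Dmd over the 8 libraries, after removal of the median of all genes in each library, were Chac2 (Pearson r 0.98, Spearman rho 0.98), Ndufa10 (r 0.95, rho 0.93) and Chrna9 (r 0.95, rho 0.93), out of 22223 genes. For Utrn they were Gm26682 (r 0.98, rho 0.95), Ticam2 (r 0.96, rho 0.90) and Gm26576 (r 0.96, rho 0.83). They are given as a description: the libraries share their scaling and depth, and 36 genes exceeded an r of 0.9 with Dmd and 23 with Utrn.

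Mapre2, the gene after Dtna at 92.6 kb, was at 3106 ± 342 and 2540.5 ± 72.2 in summed signal (SD, n = 4 each; log2 change -0.28 ± 0.13 SE, limma adjusted p = 0.517), against the sign of Dtna. The RefSeq starts of Sspn at 145931873 and of Utrn at 12861735 fell in no region of the table.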
